A study of Mus musculus with 6 samples.

Results

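The 40 genes described here encode the machinery that brings proteins into mitochondria, folds them there and degrades them. They were chosen by function, with earlier results of these data known, so the list as a whole was given no test. They were measured in mouse T-cell acute lymphoblastic leukaemia (T-ALL), in 3 arrays of MycGFP positive cells and 3 arrays of MycGFP negative cells. All 6 samples carried the genotype Notch1[delta]E mycGFP on the C57BL/6 strain, where Notch1-deltaE is an activated NOTCH1 receptor and GFP reports the MYC protein, so that the labelled groups differ in the GFP gate alone, and no group of healthy T cells is included. CD25+ spleen cells of congenic recipients, with an age label of 12 weeks, were taken 4 weeks after transplantation and sorted by mCherry and GFP, and the design describes 3 independent leukaemias. The labels do not name the promoter that drives Notch1-deltaE. Of the 40 genes, 36 were measured among 18193 genes in all. Tomm5, Tomm6, Dnajc19 and Phb had only probe sets annotated to several gene symbols, so no value is given for them. Each gene was represented by its probe set with the highest mean over the 6 arrays.

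Nearly all mitochondrial proteins are encoded in the nucleus and made in the cytosol. They enter through the TOM complex of the outer membrane and are then sorted by the SAM complex, by the small TIM chaperones of the intermembrane space or by the TIM22 and TIM23 translocases of the inner membrane, where a motor built around the HSP70 protein HSPA9 pulls precursors into the matrix. In the matrix a peptidase removes the targeting sequence, the HSPD1 and HSPE1 chaperonin folds the protein, and the LONP1 and CLPXP proteases degrade what fails to fold. MYC is known to increase the transcription of many nuclear genes for mitochondrial proteins.

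The deposited values are RMA intensities, a summary of a probe set's brightness that scales the arrays to one another and has no absolute unit, and each of the 6 arrays had a median of 30.5 to 32.7. Myc, the gene whose protein was gated on, had intensities of 2628, 3390 and 2274 on the positive arrays, against 801, 1135 and 1303 on the negative arrays (log2 difference 1.37, SE 0.24, limma, adjusted p = 0.0329). All 11 measured T lineage markers, Cd3e, Ptcra and Il2ra (CD25) among them, lay above the array median on all 6 arrays, and their summed intensity was 59937 to 71407 in positive and 71878 to 79194 in negative cells, with Cd5 alone called lower (limma, adjusted p = 0.0411, and 0.0634 with the array number as a block). No intensity on these arrays is 0. The summed intensities were 144 to 518 in positive and 242 to 826 in negative cells for 7 B cell markers, 257 to 2773 and 319 to 10704 for 12 myeloid markers, 130 to 365 and 74.6 to 392 for 5 erythroid markers, 117 to 128 and 126 to 140 for 5 megakaryocyte markers and 612 to 1012 and 752 to 1292 for 9 stromal and endothelial markers, and none of these markers was called in either direction. With the array number as a block Cd79b, S100a9 and Pecam1 were called lower (limma, adjusted p = 0.0452, 0.0482 and 0.0416). The B cell gene Cd79b averaged 146 in positive and 359 in negative cells, above the array median on all 6 arrays, while Pax5 averaged 23.2 and 25.7. The myeloid signal was uneven, with S100a8 at 364, 871 and 42.7 in positive and at 224, 4467 and 26.2 in negative cells, and array 2 was the highest of its group also for S100a9, Lyz2 and Mpo. The sum of 5 natural killer markers, nearly all of it Gzma, was 5686 to 8017 in positive and 4642 to 5238 in negative cells. The 3' to 5' ratio of the Gapdh control probe sets, a sign of RNA integrity, was 1.48 to 1.580 in positive and 1.582 to 1.89 in negative cells, without overlap. That of actin was 1.72 to 1.85 in positive and 1.54 to 1.87 in negative cells, with overlap. The part of these differences in the results was not tested.

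Genes for outer membrane import, small TIM chaperones, matrix chaperones and matrix proteases were among those that rose in MycGFP positive cells. Of the 36 measured, 15 rose and 0 fell (two-sided limma test, Benjamini-Hochberg adjusted p under 0.05 over the whole table), which is 41.7% of them, where 4.62% of all genes were called higher, 1.51% lower and 6.13% in either direction. Without adjustment, 29 had a p under 0.05 and a higher value, and 0 a lower one. Over all 18193 genes, 2677 were higher and 1338 lower at that unadjusted p. The 36 genes lay above the array median on all 6 arrays, while the 18193 genes include dimmer ones. In a fit of brighter genes alone (mean level at or above the median), 17 of the 36 were called higher. Of the 9097 genes in that fit, 11.2% were called higher. In the fit over all genes, the 15 called differences were 1.51-fold to 3.25-fold. Of these 15 genes, 11 passed also with the array number as a block, and Mtx1, Timm23, Tomm7 and Trap1 did not. The median log2 difference was 0.80 over the 36 genes, 0.01 over all genes and 0.14 over the brighter genes. For 30 of the 36 genes the 3 positive values lay above the 3 negative ones, a separation that held for 17.0% of all genes, and 35 had a difference above 0 where 51.6% of all genes did. The exception was Tomm34. In sorted bulk samples fewer cells with a transcript and less of it per cell cannot be told apart.

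Fewer of the 36 genes were called when any single array was left out, in limma fits over all genes. Such a fit also rests on fewer arrays, so lost precision and the part of the array left out cannot be told apart. Without positive array 1, 2 or 3 the number of the 36 genes called higher was 2, 0 and 0, where 0.956%, 0% and 0.572% of all genes were. Without negative array 1, 2 or 3 it was 12, 2 and 11, where 4.74%, 0.720% and 3.22% of all genes were. Clpx, Timm23, Mtx1 and Tomm7 passed in none of these 6 fits. Without positive array 2 limma called 0 genes of the whole table, and the unadjusted p was under 0.05 for 2209 higher and 976 lower genes, 26 and 0 of them among the 36. Without positive array 3 the unadjusted counts among the 36 were also 26 and 0, where 2344 and 1093 of all genes passed. The median log2 difference of the 36 genes lay between 0.78 and 0.87 in these 6 fits.

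Centring each array on the median of its genes, which moves the median difference of all genes to -0.14, left 6 of the 36 called higher and 0 lower. The whole table then held 502 genes higher, 2.76%, and 381 lower, against 840 and 275 without centring. The 6 were Hspa9, Hspd1, Lonp1, Tomm40, Timm8a1 and Timm8b. The sign of all 36 differences was the same with and without centring. With the array number as a block 13 of the 36 were called higher, where 5.75% of all genes were. The other settings called 10 with a trended and robust variance (3.86% of all genes), 14 with an offset of 16 (4.38%), 15 without cross-hybridising probe sets (4.80%), 16 with array weights (5.88%), 17 among the brighter genes (11.2%) and 18 with the mean of all probe sets (5.59%).

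**Figure D1:**
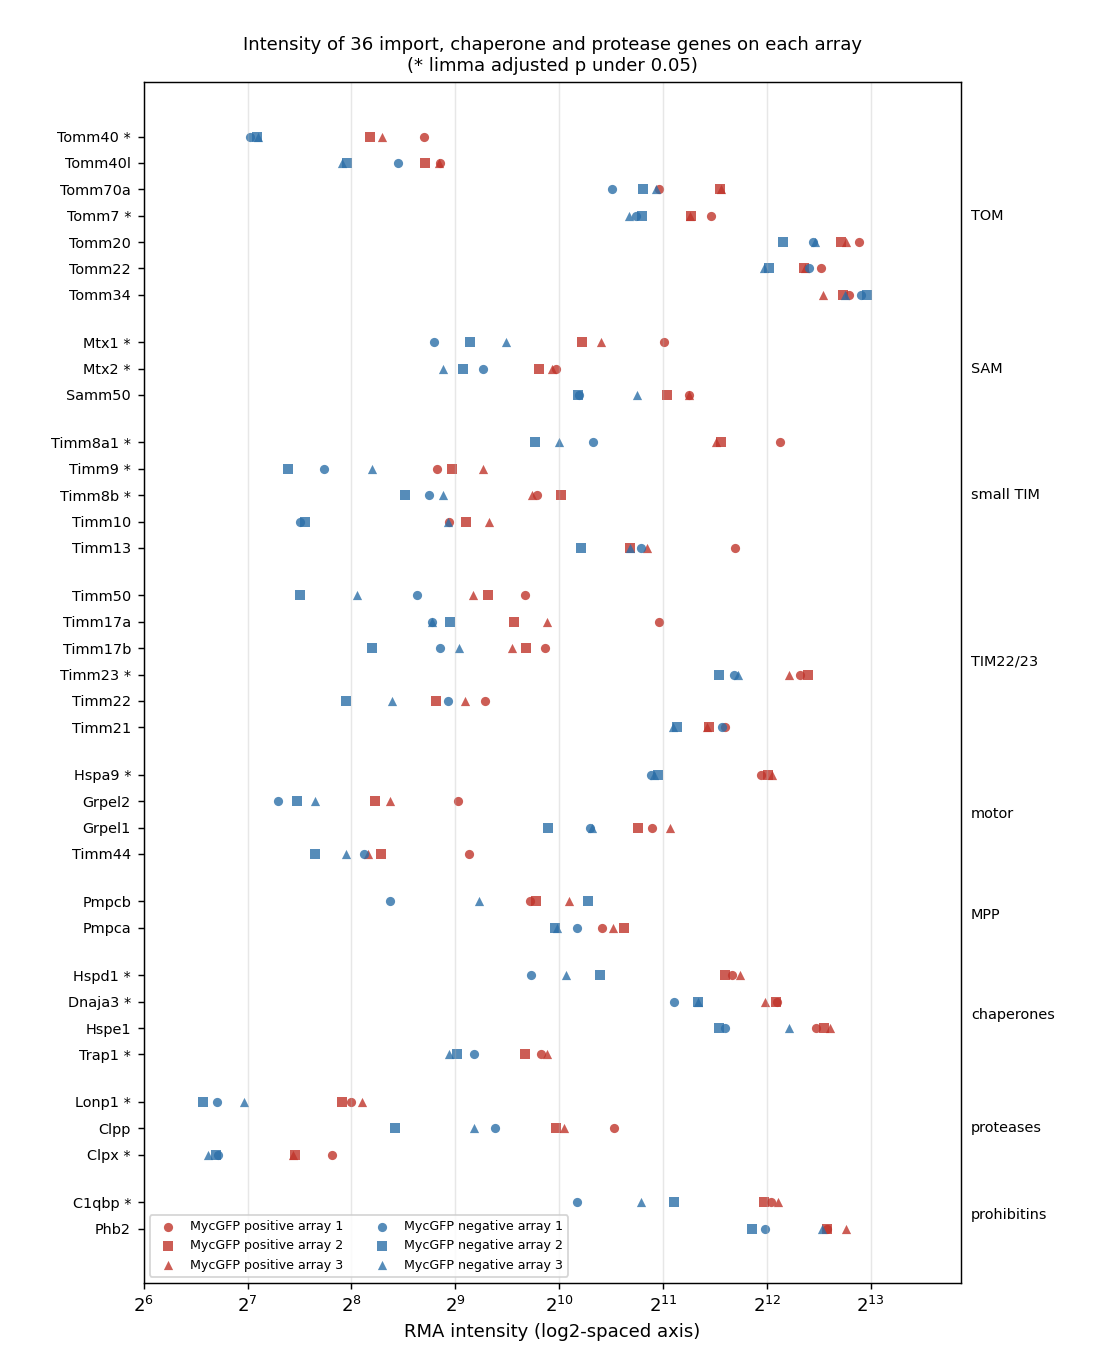
RMA intensity of each of the 36 measured genes on a log2-spaced axis, grouped by role, with MycGFP positive arrays in red and MycGFP negative arrays in blue and the array number as the marker shape. An asterisk marks the 15 genes with an adjusted p under 0.05 (limma). In 30 genes the red points all lie right of the blue points.

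Promoters are shown for genes in which a known sequence word lies near the start, to set the words beside the values of these genes. The windows run from 250 bases before to 50 after the start and come from RefSeq on GRCm38.p6, with 34 windows for 31 of the 36 genes. Searched on both strands were CACGTG, the E-box word that MYC with MAX binds, its variant CACGCG, the ETS word CCGGAAG, and, added after the letters were seen, the heat shock word, made of TTC, GAA and TTC with any 2 bases between neighbours. CACGTG lay in 17.6% of these windows, 8.72% of windows of all measured genes and 15.5% of windows of genes called higher. CACGCG lay in 32.4% of them, 13.9% of windows of measured genes and 21.7% of windows of genes called higher, and CCGGAAG in 52.9%, 13% and 20.9%. Over all 32851 windows, genes not on the arrays included, the shares were 7.15%, 9.27% and 8.86%. The heat shock word lay in windows of Hspd1, Hspe1 and Timm9, the first pair of which overlap and share the same letters, and in 0.603% of all windows. The median number of CG steps was 22.5 in windows of the 31 genes, 16 in those of measured genes and 22 in those of genes called higher, and the shares are not corrected for it. A match describes letters and is no evidence of binding.

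CACGTG was present in 6 genes, of which Timm8a1, Timm9, Hspd1 and Lonp1 rose and Timm10 and Tomm20 did not pass. Of all 31 genes with a window 13 rose. CACGCG was present in 11 genes, of which 5 rose, and CCGGAAG in 17 genes, of which 7 rose. Of the 3 genes with the heat shock word 2 rose. Whether any of these words goes with the rise was not tested. The first base of CACGTG lies at -126 from the start in Tomm20 and at 29 in Timm10, and these are not printed. CACGTG is thus printed only for genes that rose. The stretches that hold it upstream of Lonp1 (chr17:56626904-56627003, minus strand), Timm9 (chr12:71136666-71136775, minus strand), Timm8a1 (chrX:134541821-134541920, minus strand) and the upstream start of Hspd1 (chr1:55088294-55088343, minus strand) are given 5′ to 3′ on the strand of the gene, with CACGTG in capitals. The last base of the Lonp1 stretch is the base before the start, the Timm9 stretch runs 10 bases past it, and the Timm8a1 and Hspd1 stretches end 151 and 51 bases before it.
Lonp1: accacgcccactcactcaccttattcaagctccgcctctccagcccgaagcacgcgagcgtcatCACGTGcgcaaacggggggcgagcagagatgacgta
Timm9: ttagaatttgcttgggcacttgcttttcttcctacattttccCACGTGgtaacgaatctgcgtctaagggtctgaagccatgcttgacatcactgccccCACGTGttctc
Timm8a1: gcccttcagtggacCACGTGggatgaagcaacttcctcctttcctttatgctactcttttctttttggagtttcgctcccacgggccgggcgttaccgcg
Hspd1: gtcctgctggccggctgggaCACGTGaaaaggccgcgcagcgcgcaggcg
Timm9 holds the word at 2 places within its stretch, and the later one begins at the last base before the start and runs past it. The other 3 genes hold it once in theirs. Timm8a1 holds it again outside its stretch, with the first base at 25 from the start.

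Hspd1 and Hspe1, the subunits of the chaperonin, lie head to head on chromosome 1, and 215 bases separate the Hspe1 start from the downstream start of Hspd1. The upstream Hspd1 start lies 95 bases past the Hspe1 start. The stretch between (chr1:55087933-55088147, plus strand, read toward Hspe1) holds overlapping heat shock and ETS words, each found on both strands and shown together in capitals.
Hspe1: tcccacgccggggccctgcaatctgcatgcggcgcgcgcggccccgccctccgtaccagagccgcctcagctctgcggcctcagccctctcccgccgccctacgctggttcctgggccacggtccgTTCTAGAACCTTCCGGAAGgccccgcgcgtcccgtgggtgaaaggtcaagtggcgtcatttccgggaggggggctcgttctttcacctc
Both genes were higher on all positive than on all negative arrays, at 3.05-fold for Hspd1, which passed, and 1.69-fold for Hspe1, which did not.

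Proteins enter through the TOM complex, and 2 of the 7 measured genes of this group, which includes the cytosolic Tomm34, rose. Tomm40, the channel through which precursors cross the outer membrane, had intensities of 417, 290 and 315 in positive cells, against 130, 137 and 137 in negative cells. The negative values were almost equal and the positive ones all lay above them, with positive array 1 the highest (2.50-fold, log2 difference 1.32, SE 0.17, limma, adjusted p = 0.0170). Tomm7, a small subunit that tunes the stability of the complex, had 2813, 2469 and 2449 in positive cells, against 1713, 1780 and 1633 in negative cells, and these groups did not overlap either (1.51-fold, limma, adjusted p = 0.0490, and 0.0756 with the array number as a block). Tomm7 was the call nearest the threshold and passed in none of the 6 fits that left out an array, where its adjusted p was 0.0937 to 0.138.

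The receptors that dock precursors did not pass on their representing probe sets. Tomm20, which binds presequences, averaged 7090 ± 442 in positive and 5258 ± 595 in negative cells (SD, n = 3 each), and Tomm70a, which binds internal signals of carrier proteins, averaged 2676 ± 589 and 1735 ± 252 (SD, n = 3 each). Both had groups apart, with adjusted p of 0.136 and 0.170 (limma). Tomm22, the central receptor, averaged 5473 ± 367 and 4536 ± 781 (SD, n = 3 each), and its groups overlapped. Tomm40l, a close relative of Tomm40, averaged 447 ± 24.6 in positive and 279 ± 60.3 in negative cells (SD, n = 3 each, limma, adjusted p = 0.0799). Tomm34 encodes a cytosolic co-chaperone of precursors and no part of the membrane complex. It had 7093, 6812 and 5955 in positive cells, against 7692, 8011 and 6908 in negative cells, with overlapping groups and a log2 difference of -0.19 (SE 0.14, limma, adjusted p = 0.509).

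Outer membrane sorting and assembly was represented by Samm50 and the metaxins, of which 2 of 3 rose. Mtx1, a metaxin of the outer membrane, had 2057, 1193 and 1358 in positive cells, against 445, 566 and 719 in negative cells. Positive array 1 stood well above the other two positive arrays, yet the lowest positive value exceeded the highest negative one (2.64-fold, log2 difference 1.40, SE 0.27, limma, adjusted p = 0.0410, and 0.0685 with the array number as a block). Mtx2, its partner, had 1005, 895 and 974 in positive cells, against 617, 541 and 472 in negative cells (1.77-fold, limma, adjusted p = 0.0333). Samm50, the barrel that inserts other barrel proteins, averaged 2327 ± 192 and 1350 ± 324 (SD, n = 3 each) without overlap and an adjusted p of 0.0694 (limma).

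The small TIM proteins form ring-shaped chaperones that carry hydrophobic precursors across the intermembrane space, and 3 of their 5 genes rose. Timm8a1, whose human counterpart is mutated in a deafness and dystonia syndrome, showed the largest difference of the 36 genes. It had 4483, 3021 and 2923 in positive cells, against 1287, 874 and 1023 in negative cells, so that positive array 1 again stood above the other two (3.25-fold, log2 difference 1.70, SE 0.23, limma, adjusted p = 0.0194). Its relative Timm8b had 881, 1035 and 855 in positive cells, against 429, 366 and 473 in negative cells (2.19-fold, log2 difference 1.13, SE 0.16, limma, adjusted p = 0.0195).

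Timm9, which forms a ring with TIMM10, had 454, 500 and 618 in positive cells, against 213, 167 and 293 in negative cells (2.38-fold, limma, adjusted p = 0.0407). Timm10 itself had 492, 550 and 641 in positive cells, against 182, 188 and 489 in negative cells. Its groups just failed to overlap because negative array 3 nearly reached positive array 1 (log2 difference 1.13, SE 0.40, limma, adjusted p = 0.170, and 0.0227 without negative array 3). Timm13, the partner of TIMM8 proteins, averaged 2264 ± 908 and 1534 ± 305 (SD, n = 3 each), with overlap.

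Of the 6 genes of the inner membrane translocases only Timm23 rose, the channel subunit that gives TIM23 its name. It had 5110, 5394 and 4760 in positive cells, against 3288, 2984 and 3377 in negative cells (1.58-fold, log2 difference 0.66, SE 0.12, limma, adjusted p = 0.0381, and 0.0694 with the array number as a block). Its adjusted p was 0.0661 to 0.133 in the 6 fits without 1 array and 0.0784 with centred arrays. Timm50, the receptor of that complex, had a larger difference and a larger spread. Its intensities were 814, 637 and 576 in positive cells, against 398, 182 and 266 in negative cells (2.49-fold, log2 difference 1.32, SE 0.31, limma, adjusted p = 0.0629, and 0.0410 with the block). Timm17a, a channel subunit, had 2000, 758 and 943 in positive cells, against 437, 494 and 439 in negative cells. Positive array 1 stood far above the other positive arrays (log2 difference 1.30, SE 0.36, limma, adjusted p = 0.0948).

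Timm17b, the other form of that subunit, averaged 835 ± 92.5 in positive and 428 ± 121 in negative cells (SD, n = 3 each, limma, adjusted p = 0.0704). Timm22, the channel for carrier proteins, averaged 540 ± 87.7 and 357 ± 121, and Timm21, a TIM23 subunit, 2876 ± 186 and 2491 ± 466 (SD, n = 3 each). The groups overlapped for Timm22 and for Timm21, at log2 differences of 0.64 and 0.22.

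The import motor held the call with the smallest p-value of all 36 genes, Hspa9, the HSP70 protein of the matrix. Its intensities were 3949, 4121 and 4242 in positive cells, against 1893, 1985 and 1931 in negative cells, so both groups were tight (2.12-fold, log2 difference 1.08, SE 0.11, limma, adjusted p = 0.0122). It passed in 4 of the 6 fits that left out an array, more than any other of the 36, with a log2 difference of 1.06 to 1.11. The nucleotide exchange factors of HSPA9 had groups apart and did not pass: Grpel1 averaged 1928 ± 209 and 1163 ± 185, and Grpel2 384 ± 120 and 178 ± 21.6 (SD, n = 3 each, limma, adjusted p = 0.0634 and 0.0574). Timm44, which tethers HSPA9 to the channel, averaged 387 ± 151 and 242 ± 39.1 (SD, n = 3 each, limma, adjusted p = 0.284).

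Neither subunit of the matrix processing peptidase, which cuts off the targeting sequence, passed the test on its representing probe set. Pmpca, the alpha subunit, had 1362, 1574 and 1469 in positive cells, against 1153, 996 and 1012 in negative cells (log2 difference 0.48, SE 0.13, limma, adjusted p = 0.0925, and 0.0359 with the mean of its probe sets). Pmpcb, the catalytic beta subunit, had 846, 880 and 1093 in positive cells, against 331, 1243 and 601 in negative cells, so that negative array 2 held the highest value of all (log2 difference 0.57, SE 0.47, limma, adjusted p = 0.568). The groups were apart for Pmpca and overlapped for Pmpcb.

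Of the 4 matrix chaperone genes outside the motor, 3 rose. Hspd1, the large chaperonin subunit also called HSP60, had 3249, 3098 and 3435 in positive cells, against 848, 1342 and 1073 in negative cells. The groups lay far apart, with negative array 1 the lowest (3.05-fold, log2 difference 1.61, SE 0.19, limma, adjusted p = 0.0152). Hspe1, the small cap of the same chaperonin and the gene on the other side of the shared stretch printed with the promoters, had 5668, 6011 and 6264 in positive cells, against 3107, 2970 and 4755 in negative cells. Its groups were apart, with negative array 3 above the other two negative arrays, and it did not pass (1.69-fold, log2 difference 0.76, SE 0.21, limma, adjusted p = 0.0924, and 0.0325 without negative array 3). Dnaja3, a co-chaperone of HSPA9, had 4374, 4352 and 4059 in positive cells, against 2208, 2590 and 2593 in negative cells (1.73-fold, limma, adjusted p = 0.0277). Trap1, the HSP90 relative of mitochondria, had 909, 818 and 942 in positive cells, against 579, 516 and 491 in negative cells (1.68-fold, limma, adjusted p = 0.0327, and 0.0535 with the block).

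Among the ATP-dependent proteases of the matrix, Lonp1 rose with tight groups. It had 255, 241 and 275 in positive cells, against 104, 95.3 and 125 in negative cells (2.39-fold, log2 difference 1.26, SE 0.15, limma, adjusted p = 0.0152). Clpp, the proteolytic chamber of the CLPXP protease, had 1480, 1006 and 1058 in positive cells, against 666, 343 and 582 in negative cells, which did not pass (2.28-fold, limma, adjusted p = 0.0729, and 0.0399 with the block). Clpx, the unfoldase that feeds this chamber, had 225, 176 and 173 in positive cells, against 105, 104 and 98.0 in negative cells on the probe set that represents it (1.86-fold, log2 difference 0.90, SE 0.15, limma, adjusted p = 0.0291).

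A different probe set of Clpx was called in the opposite direction. It had 43.7, 68.3 and 81.3 in positive cells, against 168, 176 and 183 in negative cells (log2 difference -1.49, SE 0.24, limma over all named probe sets, adjusted p = 0.0256). With the mean of both probe sets the difference was -0.30 on the log2 scale (limma, adjusted p = 0.189), so the direction for Clpx rests on which probe set is read.

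In the group of the prohibitins and C1qbp, C1qbp rose, a matrix protein needed for mitochondrial translation. It had 4199, 4018 and 4427 in positive cells, against 1157, 2202 and 1768 in negative cells, tight in the positive and wide in the negative group (2.55-fold, log2 difference 1.35, SE 0.25, limma, adjusted p = 0.0352). Phb2, a prohibitin of the inner membrane ring that guards membrane proteins, had 6127, 6112 and 6943 in positive cells, against 4037, 3717 and 5910 in negative cells. Negative array 3 came close to the positive arrays (log2 difference 0.52, SE 0.20, limma, adjusted p = 0.210).

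**Figure D2:**
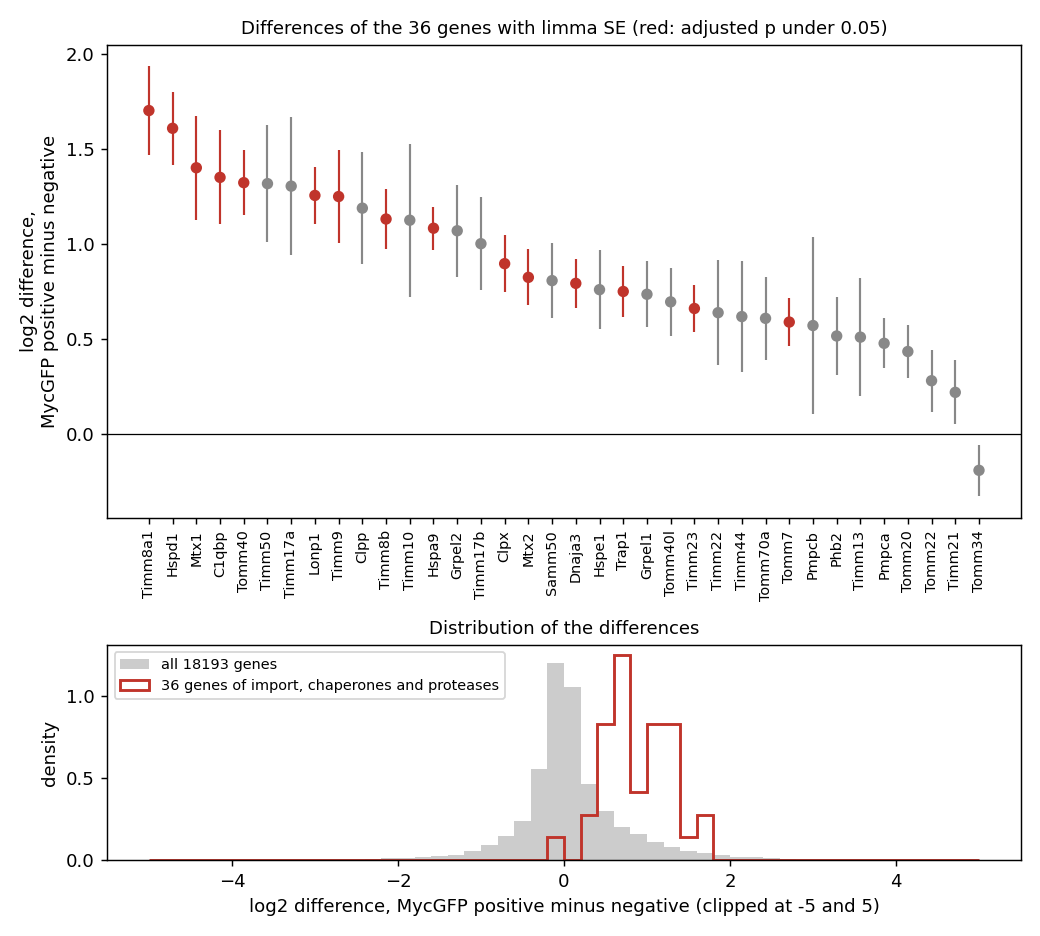
Top, log2 difference (MycGFP positive minus negative) with limma's SE for the 36 genes in order of size, in red where the adjusted p was under 0.05. Bottom, the density of these differences beside that of all 18193 genes. The 36 genes run from -0.19 for Tomm34 to 1.70 for Timm8a1, with 35 above 0.

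Over the 15 called and the 21 other genes the median SE was 0.15 and 0.22 and the median log2 difference 1.13 and 0.64, both of which enter the call. Differences tended to be smaller for brighter genes, with a Spearman rho of -0.45 between the log2 difference and the mean log2 level across the 36 genes, which share the same 6 arrays. All 36 genes lay above the array median on all 6 arrays, at single intensities of 95.3 to 8011.

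Further probe sets on the same arrays gave another reading of 24 of the genes. Of 42 such probe sets, 39 had a difference above 0, and 11 were called higher and 1 lower (limma, adjusted over 34945 named probe sets). The shares over all named probe sets were not counted, so these counts stand without a background. The probe sets of a gene read the same RNA and are not replicates. Of the 15 called genes 9 had another probe set, and for 4 of these, Hspa9, Timm8a1, Mtx1 and C1qbp, another one was also called higher. For Timm8a1 it had 969, 550 and 616 in positive cells, against 161, 155 and 272 in negative cells (log2 difference 1.87, SE 0.31, limma, adjusted p = 0.0263).

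For 5 genes the representing probe set did not pass and another did, namely Tomm70a, Tomm20, Samm50, Clpp and Pmpcb. A probe set of Tomm70a had 880, 700 and 821 in positive cells, against 416, 331 and 341 in negative cells (log2 difference 1.14, SE 0.16, limma, adjusted p = 0.0187), and its representing probe set 1996, 3005 and 3026, against 1458, 1795 and 1952. The 2 probe sets thus order the positive arrays differently. Another probe set of Tomm70a was also called higher (log2 difference 0.96, SE 0.17, limma, adjusted p = 0.0282). A further probe set of Pmpcb had 920, 967 and 1127 in positive cells, against 403, 430 and 659 in negative cells, where negative array 2 was not the highest (log2 difference 1.04, SE 0.22, limma, adjusted p = 0.0469). The probe sets with differences below 0 were those of Clpx, Tomm7 and Tomm70a, and those of Tomm7 and Tomm70a lay below the array median on all 6 arrays.

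**Figure D3:**
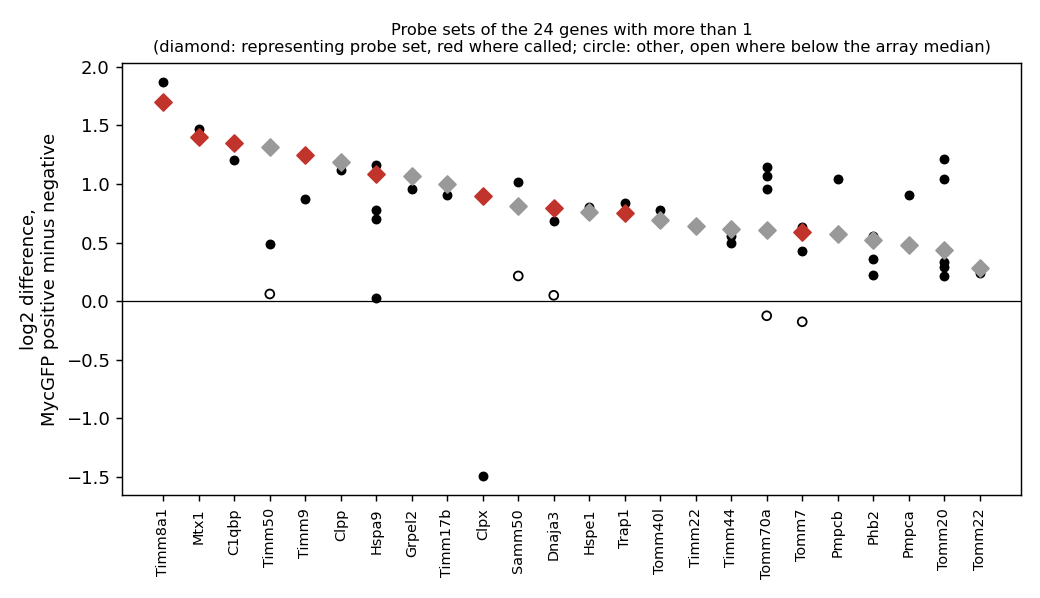
Log2 difference (MycGFP positive minus negative) of every probe set of the 24 genes that have more than 1. Diamonds are the representing probe sets, red where called (limma, adjusted p under 0.05), and circles the others, open where below the array median on all 6 arrays. Of 42 circles 39 lie above 0, and the lowest, at -1.49, is Clpx.

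Averaged over the 36 genes, on the scale of each gene's own mean, positive arrays 1, 2 and 3 lay at 0.56, 0.34 and 0.41 and negative arrays 1, 2 and 3 at -0.43, -0.54 and -0.34. Positive array 1 held the highest positive value in 20 of the 36 genes and negative array 2 the lowest negative value in 17. Between arrays of the same number, the median log2 difference was 1.01 for number 1, 0.81 for number 2 and 0.74 for number 3, with 35, 34 and 35 of the genes higher on the positive array. Cell cycle genes were also higher on the positive arrays, and they varied more among the negative arrays. Of 23 S phase genes 15 were called higher (limma, and 17 with the array number as a block). Of 21 genes of G2 and mitosis 5 were (14 with the block). Of all genes 4.62% were called higher, and 5.75% with the block. The mean of 21 genes of G2 and mitosis lay at 1.49, 1.07 and 0.91 on the positive and at 0.11, -1.41 and -2.16 on negative arrays 1, 2 and 3. That of 23 S phase genes lay at 1.19, 0.97 and 0.90 and at -0.21, -1.21 and -1.63. Positive array 1 was the highest of all arrays for the 36 genes and for both cell cycle lists. Negative arrays 1 and 3, far apart in G2 and mitosis, were close for the 36 genes. They were also close for mitochondrial ribosomal proteins, at -0.24 and -0.26, and for the respiratory chain and ATP synthase, at -0.13 and -0.13. The lists differ in the size of their group difference, so their spreads are not on a like scale. The part of cell cycle differences in the results was not tested.

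**Figure D4:**
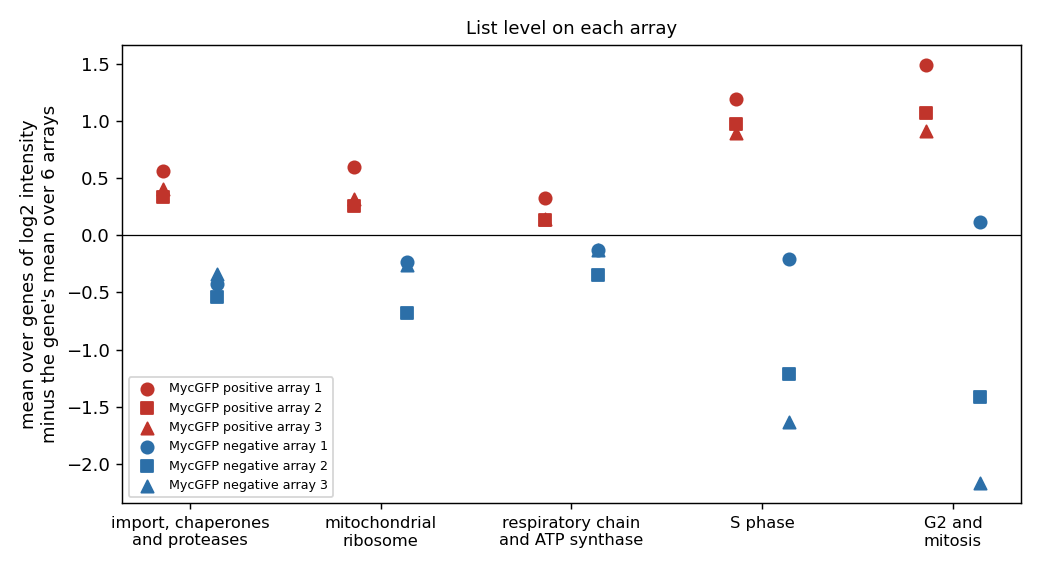
Mean over the genes of a list of log2 intensity minus each gene's mean over the 6 arrays, for the 36 import, chaperone and protease genes and 4 other lists, with MycGFP positive arrays in red left of MycGFP negative arrays in blue. The negative arrays span -0.54 to -0.34 for the 36 genes and -2.16 to 0.11 for G2 and mitosis.

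Related subunits were compared directly on the log2 ratio of their intensities on each array. Tomm40 exceeded Tomm40l in its difference by 0.63 on the log2 scale, with SDs of the ratio of 0.22 in positive and 0.34 in negative cells (n = 3 each, exact permutation test, two-sided, p = 0.1, adjusted p = 0.4 over 4 pairs). Timm8a1 exceeded Timm8b by 0.57 (exact permutation p = 0.2), Timm17a exceeded Timm17b by 0.30 (exact permutation p = 0.6), and Grpel1 was below Grpel2 in its difference, at -0.33 (exact permutation p = 0.5). With 3 arrays against 3, a p of 0.1 is the smallest the test can give, so no unequal change between such relatives could pass here. Phb and Phb2 could not be compared, since Phb was not measured.

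Other genes of the same pathway also held some that rose. Of 22 measured genes for other import, insertion and processing steps 3 rose, 13.6%, and 0 fell, at a median log2 difference of 0.39. Of all genes 4.62% were called higher, and 11.2% in the fit of brighter genes alone, so this share is near that of brighter genes. Whether the 22 differ from the 36 was not tested. The largest was Chchd4, the oxidoreductase that traps small TIM and other cysteine-rich proteins in the intermembrane space. It had 534, 504 and 405 in positive cells, against 95.4, 77.0 and 100 in negative cells (5.29-fold, log2 difference 2.40, SE 0.17, limma, adjusted p = 0.0103). The others were Mipep, a matrix peptidase, at 2.43-fold (adjusted p = 0.0454), and Mtch2, an insertase of the outer membrane, at 2.02-fold (adjusted p = 0.0439), with 0.0519 and 0.0642 under the block. Gfer, which reoxidises CHCHD4, averaged 787 ± 314 and 356 ± 102 without overlap (SD, n = 3 each, limma, adjusted p = 0.124, and 0.0336 with the block). Oxa1l, the inner membrane insertase, averaged 259 ± 122 in positive and 586 ± 221 in negative cells with overlap (SD, n = 3 each, limma, adjusted p = 0.168).

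Among 13 other mitochondrial chaperones and quality-control proteases, Afg3l2, an inner membrane protease, rose 1.64-fold (limma, adjusted p = 0.0471) and Atp23, a peptidase of the intermembrane space with a mean of 29.1 in negative cells near the array median, rose 3.71-fold (limma, adjusted p = 0.0460), with adjusted p of 0.0791 and 0.0819 under the block. The block added 4 of this list, Clpb, Htra2, Parl and Stoml2, at 3.00-fold, 3.04-fold, 1.98-fold and 2.03-fold (limma, adjusted p of 0.0262, 0.0295, 0.0311 and 0.0428 with the block, and 0.0522, 0.124, 0.0793 and 0.0589 without it). Clpb is a disaggregase, Htra2 and Parl are proteases, and Stoml2 is a scaffold of the inner membrane. None of the 6 genes passed in both fits. The 2 called without the block are 15.4% of the 13, where 4.62% of all genes and 11.2% in the fit of brighter genes alone were called higher. The median log2 difference of the 13 was 0.71 and 0 fell. Of 7 MICOS genes, which shape the inner membrane folds next to the import sites, Chchd6 rose 4.92-fold (limma, adjusted p = 0.0123) and Immt 2.55-fold (limma, adjusted p = 0.0195), and 0 fell. Apoo, another subunit, was 2.51-fold higher without overlap (limma, adjusted p = 0.0641, and 0.0287 with the block). Chchd6 had 540, 630 and 847 in positive cells, against 121, 114 and 174 in negative cells.

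Larger mitochondrial groups and the chaperonin of the cytosol held further genes that rose. Of 76 mitochondrial ribosomal protein genes 20 rose, which is 26.3%, at a median log2 difference of 0.80. Of 82 genes of the respiratory chain and ATP synthase 8 rose, 9.76%, at a median of 0.45. Of 9 subunits of CCT, the chaperonin of the cytosol, 4 rose, 44.4%, at a median of 0.75, namely Tcp1, Cct6a, Cct8 and Cct5 at log2 differences of 1.14, 1.10, 0.94 and 0.82 (limma, adjusted p of 0.0146, 0.0267, 0.0299 and 0.0382). None of these genes was called lower. Of all genes 4.62% were called higher, and 11.2% in the fit of brighter genes alone. The share of the respiratory chain and ATP synthase lay between these 2 values. No difference between these groups and the 36 genes was tested.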

How the data were processed

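RNA of sorted leukaemia cells, 5 ng per sample, was amplified, labelled with biotin and hybridised to Affymetrix mouse arrays, per the labels' protocols. The deposited values are linear intensities per probe set made by the authors with RMA, per the submitters' processing notes, with no version given in the sources used here. RMA hides changes in total RNA per cell, and amplification from little RNA adds noise to dim genes. No p-value here covers more than the spread between these sorted samples, whose number limits the precision.

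For 18193 genes, log2 of the intensity was compared between the 2 groups without covariates in R 4.3.3, using lmFit and eBayes of limma 3.58.1 (4 residual and 2.17 prior degrees of freedom), with Benjamini-Hochberg adjustment and a threshold of 0.05. Folds are antilogs of log2 differences, MycGFP positive minus negative. Of 45101 probe sets 34945 had 1 symbol, updated by Entrez identifier through RefSeq (GRCm38.p6) where 34741 matched, 932 had several and 9160 none. Another 64 are controls and entered no test. The fit was tested on simulated data.

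The members, lists and tests were chosen with earlier results of these data known. All members are accounted for. Those called, or the 2 largest of a role with none called, are given on every array. Of other lists up to 4 called genes with the smallest adjusted p were to be named, and for the wider lists counts alone are given. Gfer, Oxa1l, Clpb, Htra2, Parl, Stoml2, Apoo and the single cell type markers were named after their values were seen. A wrong symbol and a repeated one were dropped from the MICOS list after its values were seen.

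The array numbers were checked for pairing. Over all genes, deviations from the group mean correlated at r = 0.38, 0.21 and 0.39 for arrays of the same number and at -0.32 to -0.03 for others. Whether same-numbered arrays come from 1 leukaemia is not in the labels. Over the 36 genes r was 0.35, 0.06 and 0.32 for arrays of the same number and -0.48 to 0.23 for others. There the number 2 pair lay below positive array 3 with negative array 2. Deviations within a group sum to 0, so these correlations are not independent. By those over all genes the numbers were taken to pair the arrays. The value with the number as a block stands beside a named gene whose call it ends or adds. The main fit, the fits without 1 array and the permutation test do not use this pairing. Also tried were the block, 6 fits without 1 array each, the mean of all probe sets, no cross-hybridising probe sets, centred arrays, an offset of 16, brighter genes only, a trended and robust variance and array weights.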

Additional observations from a re-analysis of the deposited data

How the results depend on the processing

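The direction of 35 genes and the sign of Tomm34 were the same under all 14 alternatives, except that Clpx had a log2 difference of -0.30 with the mean of all probe sets and that Mtx2 had no probe set left without the cross-hybridising ones. With 15 genes called higher in all, leaving out an array gave 0 to 12, and with each array centred on its median 6 were called. For all genes the counts were 0 to 862 higher and 0 to 238 lower without an array, and 502 higher with centring. The median log2 difference of the 36 genes was 0.65 with centring. With the array number as a replicate block 13 of the 36 genes were called, 11 of them also without it. Mtx1, Timm23, Tomm7 and Trap1 were lost, Clpp and Timm50 were gained, and no other call among the 36 changed. 0 of the 36 genes were called lower in any alternative. At an unadjusted p under 0.05 the mean of all probe sets gave 1 lower, where 1523 of all genes were lower. The differences between related subunits kept their sign under the 4 alternatives run for them. The causes of these changes were not tested.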
